A study of Mus musculus with 24 samples.

Results

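The AP-1 family was examined through 9 genes, Fos, Fosb, Fosl1, Fosl2, Jun, Junb, Jund, Atf3 and Maff, out of the 47069 gene IDs counted in hippocampal RNA of adult mice. The 9 were a given list, matched by Ensembl ID to GENCODE M21 symbols. Each had 1 ID in every library, and 8 of the 9 passed the filter on low counts. Fosl1 did not pass and is described by its counts alone.

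AP-1 is a dimer of basic leucine zipper (bZIP) proteins. Fos, Fosb, Fosl1 and Fosl2 make the Fos family, whose proteins bind DNA only as partners of the Jun family, Jun, Junb and Jund, whereas Jun proteins also pair with each other. Atf3 is a stress-inducible bZIP factor that pairs with Jun proteins, and Maff is a small Maf protein, which has no activation domain of its own. In neurons Fos, Fosb and Junb are immediate early genes: synaptic activity and calcium entry act on factors already bound to their promoters, and their RNA is used as a mark of recently active cells.

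The study asked what loss of Kdm5c, an X-linked gene for a demethylase of histone H3 lysine 4, does to hippocampal RNA at rest and after exploration of an unfamiliar place. All mice were males, given as 2 to 4 months old, and each of the 18 libraries held hippocampal tissue pooled from 3 mice, with 3 libraries in each of 6 groups. In the constitutive line, kept as a mixed C57/129 F1 background, the groups were wild type (WT) and Kdm5c-/y (KO), each either untreated or after novelty, which was 1 h alone in a box with tubing and toys. In the inducible line, on C57BL/6J, untreated mice in which the Camk2a promoter drives CreERT2 against floxed Kdm5c (ifKO) were set against untreated control mice. CreERT2 is a Cre recombinase that acts when tamoxifen is given, and the Camk2a promoter is active in excitatory forebrain neurons, so other cells of the tissue keep the gene. The Cre status of the control mice, and whether and when tamoxifen was given to either group, are points not given in the sources used here. Both lines were sequenced, on separate flowcells and with reads of 50 nt and 75 nt, so their levels are set side by side without a test.

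Libraries held 16.0 to 45.6 M counts in genes. Kdm5c itself stood at 74.2 to 76.4 CPM (counts per M counts in genes, scaled by TMM factors) in untreated WT and at 75.4 to 76.3 CPM in untreated KO. After novelty it had 90.2 to 100 CPM in WT and 77.8 to 86.5 CPM in KO, and in the inducible line 62.1 to 67.5 CPM in control and 63.6 to 69 CPM in ifKO. Such counts over the whole gene do not check a deletion of part of it. Markers of pyramidal cells summed to 4249 to 6411 CPM and those of dentate granule cells to 325.1 to 479.1 CPM, and no marker of the 8 cell types examined was at 0 in any library. The 6 choroid plexus markers summed to 618.1 CPM in KO untreated library 2 and 393.3 CPM in control library 1, against 33.51 to 78.36 CPM in the other 16 libraries. WT novelty library 1 and KO novelty library 2 lay farthest from the other 2 libraries of their group, with a median absolute difference of 0.184 and 0.155 on a log2 scale, against 0.057 to 0.143 in the other 16. The results below are given with and without that pair where it changed a call.

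The promoters of the members are shown because some of them hold letters known as sites of activity-dependent factors. The cAMP response element, TGACGTCA, is the site of CREB, a factor that calcium and cAMP signals activate, and its half-site TGACG occurs alone in many activity-regulated promoters. RefSeq promoter entries (build GRCm38.p6) matched 8 of the 9 members, with 10 entries because Maff has 3, and there was no entry for Fosl1. In the 250 bases before the start, on either strand, the half-site was found in 5 of the 8 (Fos, Fosb, Junb, Atf3 and Maff), against 19.8% of all 27025 genes with an entry. The full element, which contains the half-site on both strands, was found in 1 member, Maff, against 1.77% of genes. The 150 bases before the start are printed below for these 5 and for Jun, which had no half-site, with the half-site or full element in capitals on whichever strand it lies (CGTCA is TGACG read from the other strand).
Fos (chr12:85473740-85473889, plus strand): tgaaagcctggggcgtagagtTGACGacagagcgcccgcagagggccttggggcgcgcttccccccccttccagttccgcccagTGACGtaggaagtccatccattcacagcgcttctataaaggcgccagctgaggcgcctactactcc
Fosb (chr7:19310046-19310195, minus strand): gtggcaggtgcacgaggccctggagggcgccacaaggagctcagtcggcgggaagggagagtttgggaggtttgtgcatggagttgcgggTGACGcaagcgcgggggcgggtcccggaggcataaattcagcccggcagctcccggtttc
Junb (chr8:84978749-84978898, minus strand): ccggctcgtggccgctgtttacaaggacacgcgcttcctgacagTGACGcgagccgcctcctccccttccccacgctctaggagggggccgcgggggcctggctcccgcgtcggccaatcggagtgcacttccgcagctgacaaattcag
Atf3 (chr1:191183334-191183483, minus strand): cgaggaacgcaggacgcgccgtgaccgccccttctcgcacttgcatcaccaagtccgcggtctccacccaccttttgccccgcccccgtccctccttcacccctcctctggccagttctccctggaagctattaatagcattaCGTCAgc
Maff, promoter 2 (chr15:79347370-79347519, plus strand): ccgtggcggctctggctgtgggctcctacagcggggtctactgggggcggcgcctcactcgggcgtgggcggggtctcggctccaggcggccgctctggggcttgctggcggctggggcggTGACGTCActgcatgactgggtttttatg
Jun (chr4:95052223-95052372, minus strand): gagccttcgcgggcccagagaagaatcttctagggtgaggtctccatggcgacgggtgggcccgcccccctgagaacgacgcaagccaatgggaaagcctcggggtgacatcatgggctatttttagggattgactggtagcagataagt
In Fos the 2 half-sites began 129 and 66 bases before the start, in Fosb 60, in Junb 106 and in Atf3 7. In Maff the full element of promoter 2 began 29 bases before that start, and promoter 3 had a half-site at 122. Promoter 1 of Maff, the one at the GENCODE gene start, had neither. Promoters 2 and 3 start 899 and 1781 bases downstream of it, and each of the 3 entries was searched. Fosl2, Jun and Jund had none in the window searched. The AP-1 site TGANTCA was found in 0 of the 8 against 7.82% of genes. The CArG box, the site of serum response factor, was found in 0 against 1.62%. Bases farther than 250 from the start were not searched, so sites there are not covered by any of these counts. For some members the RefSeq and GENCODE starts differ. The Jund entry starts 1210 bases upstream of the GENCODE gene start, the Fosl2 entry 671 bases downstream and the Atf3 entry 34706 bases downstream. All 150 bases before the Fosl2 start lie in GENCODE exons, as do 7 of those before the Atf3 start and 6 before the Fosb start. A match is a description of letters, not a bound site.

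Levels of different genes were compared per kb of exon, taken over the exons of all isoforms of a gene. That length was 6243 bases for Fosb against 3782 in its longest transcript, and 9680 against 6537 for Fosl2. For Jun and Jund it equalled the longest transcript. The levels per kb, and the ratios made from them, depend on this choice of length. In untreated WT the Jun family stood highest, with Jun at 28.5 ± 4.35 CPM per kb (SD, n = 3), Jund at 26.0 ± 4.25 and Junb at 16.4 ± 5.97. Fosl2 followed at 6.50 ± 0.296 and Fos at 5.76 ± 3.75, then Fosb at 1.31 ± 0.488, Atf3 at 0.491 ± 0.283, Maff at 0.251 ± 0.0856 and Fosl1 at 0.0174 ± 0.0157 CPM per kb. The libraries of Jun and Jund overlapped, as did those of Fosl2 and Fos, of Fosb and Atf3, and of Atf3 and Maff, so these neighbours in the order did not differ beyond their spread.

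After novelty in WT the top of the order was Jun at 33.4 ± 3.84, Junb at 32.9 ± 4.46, Jund at 24.5 ± 5.71 and Fos at 19.9 ± 2.39 CPM per kb, and within these 4 each overlapped the next. Fosl2 at 12.6 ± 0.886, Fosb at 5.50 ± 0.615, Atf3 at 1.26 ± 0.162, Maff at 0.659 ± 0.1247 and Fosl1 at 0.0480 ± 0.0308 followed with no overlap between neighbours. In KO after novelty Jund at 34.2 ± 7.64, Junb at 33.4 ± 2.25 and Jun at 33.3 ± 2.35 CPM per kb overlapped, and Fos stood below them at 18.6 ± 1.99. The inducible line had the same leading gene in both groups, with Jun at 21.8 ± 2.32 CPM per kb in control and 23.0 ± 2.70 in ifKO, and Fos at 3.94 ± 0.933 and 4.21 ± 3.08. Summed per kb, the 3 Jun genes stood at 4.52 to 6.08 times the 4 Fos genes in the untreated WT libraries and at 2.02 to 2.86 times after novelty. In KO the same ratio was 4.31 to 5.16 untreated and 2.38 to 3.28 after novelty. It was 4.30 to 5.20 in control and 3.19 to 10.8 in ifKO. Jun family RNA thus exceeded Fos family RNA in every library, by less after novelty in both genotypes.

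**Figure D1:**
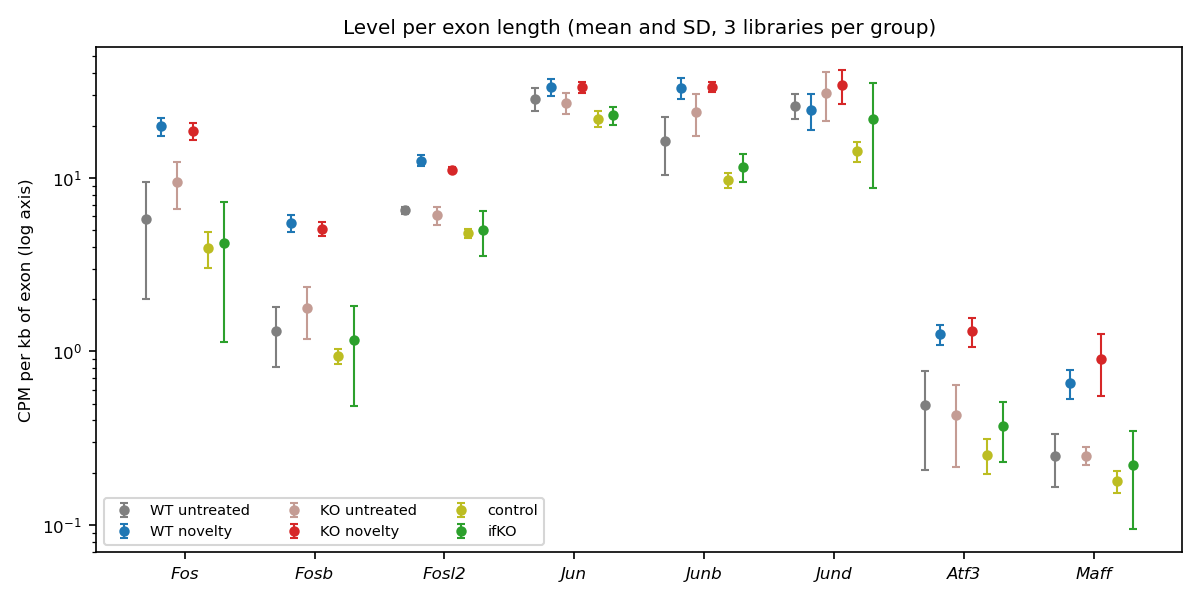
Level of 8 members in CPM per kb of exon (log axis), as the mean and SD of 3 libraries in each of 6 groups, with Fosl1 left out because of its low counts. Jun, Junb and Jund stand highest in each group, and Fos moves from 5.76 in untreated WT to 19.9 after novelty.

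Novelty was followed by higher RNA of 6 of the 8 tested members when its effect was averaged over both genotypes, namely Fos, Fosb, Fosl2, Junb, Atf3 and Maff. Over all 16392 genes tested 1.07% rose in that comparison, and the members' median log2 fold change was 1.14 against 0 for all genes. Each genotype alone called fewer: 2 of 8 in WT (Fosb and Fosl2; 0.348% of all genes rose) and 3 of 8 in KO (Fosb, Fosl2 and Maff; 0.11% of all genes rose). In the same 6 genes that rose on average, all 6 novelty libraries lay above all 6 untreated libraries, which was so for 1.38% of genes tested. A call is an adjusted p under 0.05 in edgeR's quasi-likelihood test, with p-values adjusted over all genes by the method of Benjamini and Hochberg. Fold changes are log2 values ± the SE of the fit with n = 3 libraries a group. In bulk tissue, fewer cells that express a gene and less RNA per cell cannot be told apart. Since each library is a pool, all p-values rest on the spread among pools rather than among single mice.

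**Figure D2:**
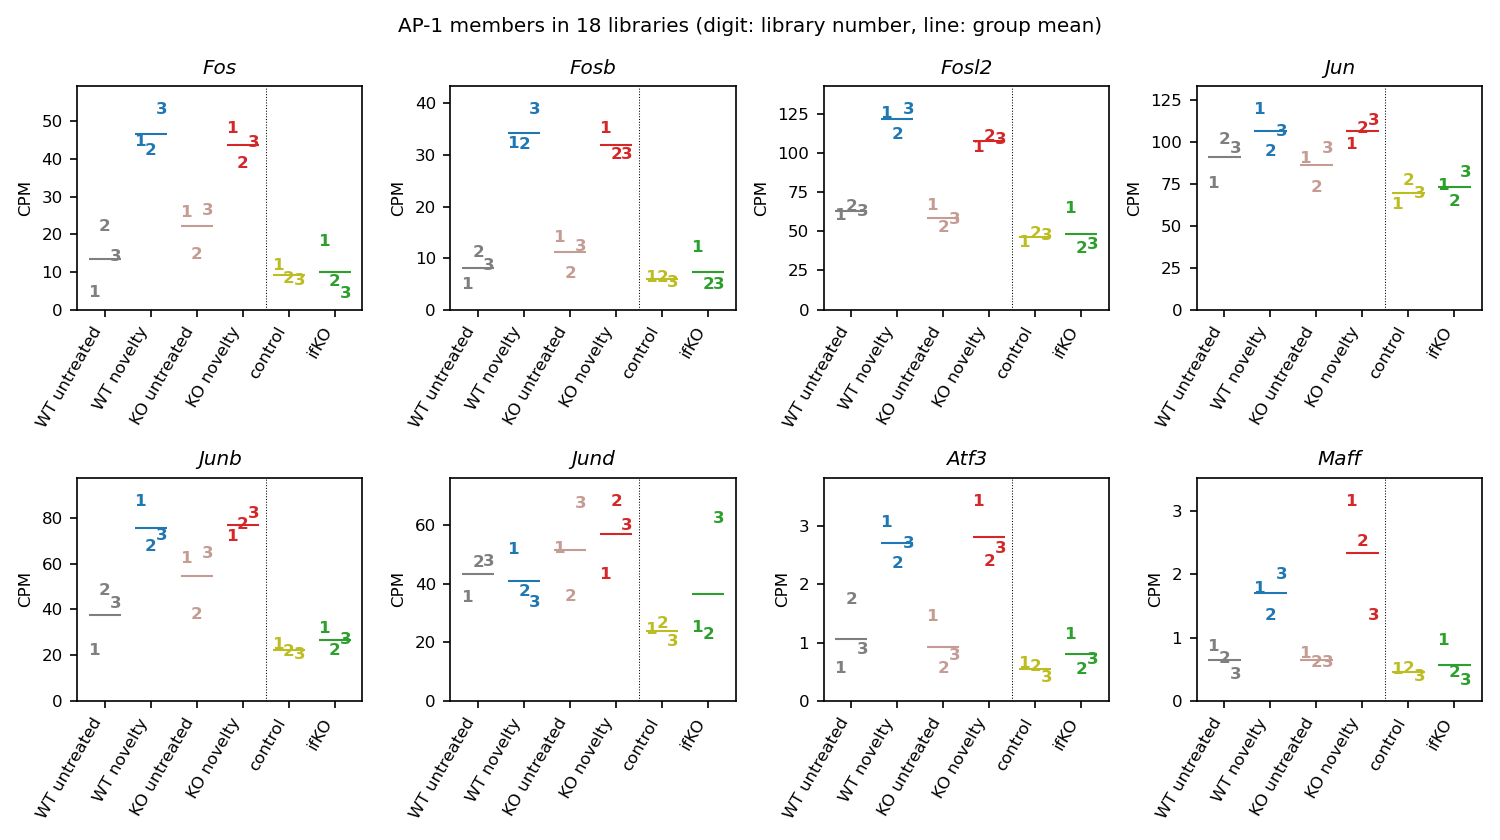
CPM of 8 members in 18 libraries, with the library number as the point and the group mean as a line; the dotted line parts the constitutive from the inducible line. In Fos, Fosb, Fosl2, Junb, Atf3 and Maff all 6 novelty libraries lie above all 6 untreated libraries of the constitutive line.

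Fos (chromosome 12, 85473890 to 85477273, plus strand, GRCm38), the founding gene of its family and the most used mark of neuronal activity, stood at 4.44, 22 and 14.2 CPM in untreated WT libraries 1, 2 and 3. After novelty the WT libraries held 44.7, 42.4 and 53.1 CPM. Untreated KO had 25.8, 14.5 and 26.3 CPM, and KO after novelty 48.2, 38.9 and 44.3 CPM. Every novelty library was thus above every untreated one, while the untreated WT libraries differed among themselves more than the novelty ones did. The averaged rise was 1.36 ± 0.24 (adjusted p = 0.0138), a 2.57-fold higher level. In WT alone the value was 1.75 ± 0.35 and missed the threshold (adjusted p = 0.0536), and in KO it was 0.97 ± 0.34 (adjusted p = 0.53). The WT value passed in 5 of 14 alternatives, among them DESeq2 (adjusted p = 0.0189), offsets for GC content and length (0.0068), leaving out the pair of novelty libraries that lay apart (0.0186) and leaving out WT untreated library 2 (0.0499). The averaged call was lost without WT untreated library 3 (adjusted p = 0.0529) or WT novelty library 3 (0.0536).

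Fosb (chromosome 7, 19302696 to 19310051, minus strand), whose truncated product ΔFosB is known to build up under repeated stimulation, had 4.93, 11 and 8.52 CPM in untreated WT and 32.1, 32.0 and 38.7 CPM after novelty. The KO libraries had 14, 6.94 and 12.3 CPM untreated and 35.2, 30.2 and 30.2 CPM after novelty. No novelty library came near an untreated one: the highest untreated library had 14 CPM and the lowest novelty library 30.2. Fosb rose by 2.05 ± 0.25 in WT (adjusted p = 0.00487), by 1.5 ± 0.23 in KO (adjusted p = 0.0329) and by 1.77 ± 0.17 on average (adjusted p = 0.000255). On average this was 3.42-fold, the largest fitted change among the 8 tested members. The WT call held in all 14 alternatives run. The KO call was lost when any 1 of the 6 KO libraries was left out, with adjusted p between 0.0569 and 0.244, and when only the groups compared were fitted (0.0615).

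Fosl2 (chromosome 5, 32135801 to 32157842, plus strand), which encodes Fra-2 and is usually switched on later and for longer than Fos, was the most even member in the constitutive line. Untreated WT had 60.2, 65.9 and 62.7 CPM, and WT after novelty 126, 112 and 128 CPM. Untreated KO had 66.3, 52.3 and 57.8 CPM, and KO after novelty 104, 111 and 109 CPM. The 2 ranges were far apart in both genotypes and the libraries of each group lay close together. Fosl2 rose by 0.95 ± 0.09 in WT (adjusted p = 0.000665), by 0.87 ± 0.09 in KO (adjusted p = 0.00184) and by 0.91 ± 0.06 on average (adjusted p = 1.5e-05), a 1.88-fold change. It was the one member called in both genotypes under each alternative run, single libraries left out included.

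Fosl1 (chromosome 19, 5447547 to 5455946, plus strand), which encodes Fra-1, was almost unread. Its counts summed over 3 libraries were 2 in untreated WT, 8 in WT after novelty, 2 in untreated KO, 9 in KO after novelty, 7 in control and 5 in ifKO. Per M counts, novelty against untreated was a ratio of 3.05 in WT (95% counting interval 0.609 to 29.5) and 7.43 in KO (1.54 to 70.7). These intervals cover counting error only, no library held more than 5 counts, and no test was made. Fosl1 overlaps Ccdc85b on the opposite strand, a gene with 15575 counts over the 18 libraries against 33 of Fosl1. With a strand setting of the counting not given in the sources used here, counts of the pair may not be separate.

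Of the Jun family, Junb was the member that changed. Junb (chromosome 8, 84974484 to 84978718, minus strand), an early response gene whose protein is a weaker activator than Jun, had 22.2, 48.4 and 42.5 CPM in untreated WT and 87.2, 67.4 and 72.5 CPM after novelty. In KO it had 62.4, 37.6 and 64.5 CPM untreated and 71.6, 77.2 and 82.0 CPM after novelty. All novelty libraries were above all untreated ones, but by a small margin, with 67.4 against 64.5 CPM at the nearest. Junb rose by 0.74 ± 0.17 on average (adjusted p = 0.0491), with values of 1.00 ± 0.24 in WT (adjusted p = 0.101) and 0.48 ± 0.23 in KO (adjusted p = 0.755). The averaged call stood at the threshold and was lost with RLE factors (adjusted p = 0.0502), without the pair of novelty libraries that lay apart (0.0514) and without any single library but WT untreated 2 (0.0517 to 0.116). Junb overlaps Prdx2 at its end on the opposite strand, a gene with 75036 counts over the 18 libraries against 24355 of Junb, and their counts too may not be separate.

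Jun (chromosome 4, 95049034 to 95052222, minus strand), the founding Jun gene, had 75.1, 101 and 95.9 CPM in untreated WT and 119, 94.5 and 106 CPM after novelty. In KO it had 90.0, 72.7 and 95.8 CPM untreated and 98.2, 108 and 113 CPM after novelty. The WT ranges overlapped, and in KO the novelty libraries were all higher, which was so for 8.6% of genes tested. The log2 value was 0.23 ± 0.13 in WT (adjusted p = 0.556), 0.30 ± 0.13 in KO (adjusted p = 0.69) and 0.26 ± 0.09 on average (adjusted p = 0.19), with a 95% interval of 0.07 to 0.45. Without a low-count filter the averaged value was called (adjusted p = 0.0328). The antisense gene Junos overlaps Jun, with 840 counts over the 18 libraries against 45859 of Jun.

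Jund (chromosome 8, 70698949 to 70700616, plus strand), the Jun gene that most tissues express steadily, had 35.2, 47.3 and 47.7 CPM in untreated WT and 51.7, 37.3 and 33.7 CPM after novelty. The KO libraries had 51.9, 35.6 and 67.4 CPM untreated and 43.0, 68.0 and 59.95 CPM after novelty. The groups overlapped throughout. The averaged log2 value was 0.02 ± 0.16 (adjusted p = 0.972), with a 95% interval of -0.32 to 0.37, which does not hold the values of Fos, Fosb, Fosl2, Junb, Atf3 or Maff. The antisense gene Gm11175 (70699162 to 70700080) lies within Jund, with 285 counts over the 18 libraries against 21472 of Jund, and counts of this pair, like those of Jun and Junos, may not be separate.

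Atf3 and Maff were low but among the members that changed most. Atf3 (chromosome 1, 191170296 to 191218039, minus strand) had 0.555, 1.74 and 0.882 CPM in untreated WT and 3.05, 2.36 and 2.70 CPM after novelty. In KO it had 1.44, 0.555 and 0.778 CPM untreated and 3.42, 2.40 and 2.61 CPM after novelty. The untreated libraries spread over a wide range, all below the novelty libraries. Atf3 rose by 1.41 ± 0.25 on average (adjusted p = 0.0119), with 1.31 ± 0.35 in WT (adjusted p = 0.148) and 1.51 ± 0.34 in KO (adjusted p = 0.185), and the averaged call was lost without WT untreated library 3 (adjusted p = 0.0514). Counts behind these values were 69 in untreated WT, 214 in WT after novelty, 101 in untreated KO and 167 in KO after novelty.

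Maff (chromosome 15, 79346621 to 79359076, plus strand) had 0.863, 0.667 and 0.420 CPM in untreated WT and 1.78, 1.36 and 1.99 CPM after novelty. In KO it had 0.743, 0.601 and 0.609 CPM untreated and 3.15, 2.52 and 1.35 CPM after novelty. Here the KO novelty libraries were the uneven group, with library 3 near the WT level and the other 2 above it. Maff rose by 1.62 ± 0.23 on average (adjusted p = 0.00343) and by 1.82 ± 0.31 in KO (adjusted p = 0.0492), and the WT value was 1.42 ± 0.34 (adjusted p = 0.107). The averaged call held in all 19 alternatives run. The KO call stood at the threshold and was lost without any single library of its 2 groups but KO novelty 3 (adjusted p between 0.102 and 0.393). It was also lost without the pair of novelty libraries that lay apart (adjusted p = 0.0508), with RLE factors (0.0514), with a filter of 1 CPM in 3 libraries (0.053) and when only the groups compared were fitted (0.132).

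**Figure D3:**
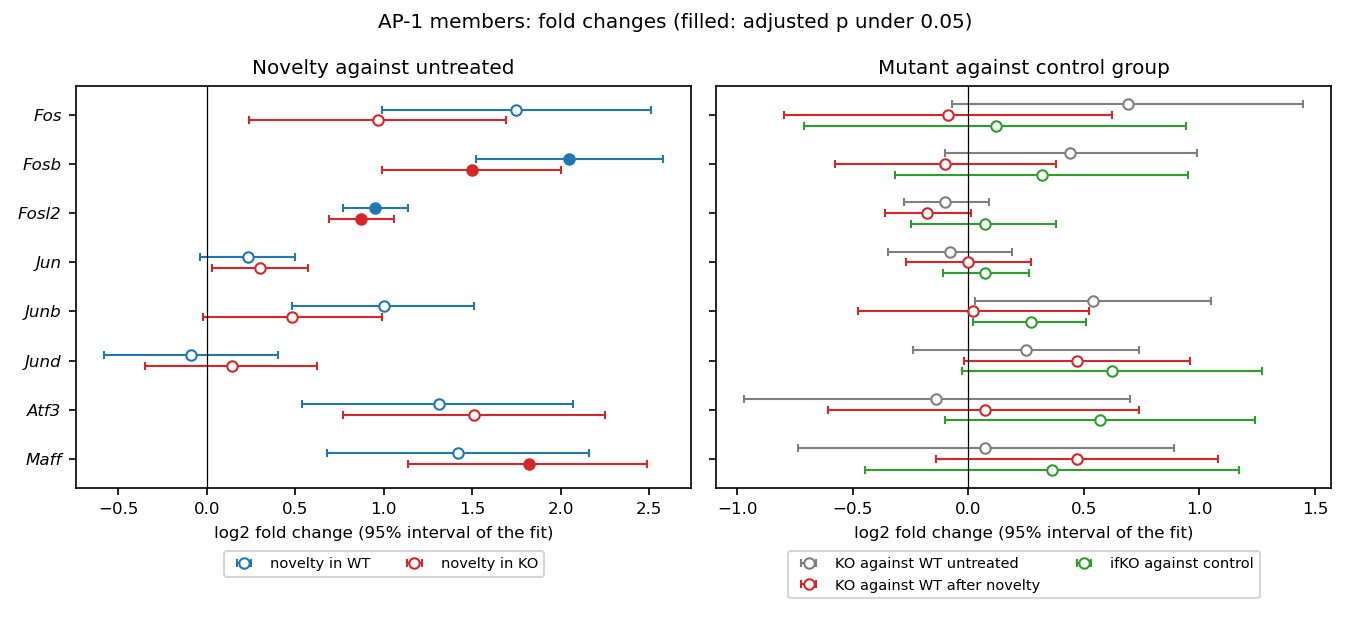
Log2 fold change of 8 members with the 95% interval of the fit, for novelty against untreated in each genotype (left) and for the mutants against WT or control (right); filled points have an adjusted p under 0.05. Filled points occur only on the left, for Fosb and Fosl2 in both genotypes and for Maff in KO.

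The question whether the response to novelty differed between KO and WT was tested by the interaction. No member was called, and 0% of all genes were. None of the 8 had an unadjusted p under 0.05, and DESeq2 called none. Without the pair of novelty libraries that lay apart, 331 genes were called and still 0 of the members. The values, as the log2 response of KO minus that of WT, were positive in 4 of the 8. The widest intervals were those of Atf3, at 0.20 (95% interval -0.87 to 1.28), Fos, at -0.78 (-1.82 to 0.26), and Maff, at 0.40 (-0.63 to 1.43). Fosb was at -0.55 (-1.27 to 0.18), Junb at -0.51 (-1.23 to 0.20) and Jund at 0.22 (-0.47 to 0.91). The intervals were narrow for Fosl2, at -0.08 (-0.34 to 0.18), and for Jun, at 0.07 (-0.31 to 0.45). The Atf3 value turned to -0.35 without WT untreated library 2. A difference of 1 log2 unit in either direction lies outside the intervals of Fosl2, Jun and Jund and inside at least 1 side of the other 5.

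Between untreated KO and WT no member was called, where 1.24% of all genes were, and the libraries of all 8 overlapped, while 21% of genes had groups apart. Junb was the one member with an unadjusted p under 0.05, with a log2 value of 0.54 (95% interval 0.03 to 1.05, adjusted p = 0.544). Fos had 0.69 (-0.07 to 1.45, adjusted p = 0.649) and Fosb 0.44 (-0.10 to 0.99, adjusted p = 0.692). The Fos value moved with single libraries, to 0.31 without WT untreated library 1 and to 1.20 without WT untreated library 2. Without a low-count filter Fos (adjusted p = 0.0436) and Junb (0.0245) were called higher in KO. That setting also called Jund in ifKO, where a single library stood apart, so its calls may take too little account of the spread. Fosl2 at -0.10 (-0.28 to 0.09), Jun at -0.08 (-0.35 to 0.19), Jund at 0.25 (-0.24 to 0.74), Atf3 at -0.14 (-0.97 to 0.70) and Maff at 0.07 (-0.74 to 0.89) lay near 0 or had wide intervals.

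After novelty no member was called between KO and WT either, where 1.34% of all genes were, and none had an unadjusted p under 0.05. Fos at -0.09 (-0.80 to 0.62), Fosb at -0.10 (-0.58 to 0.38), Jun at 0 (-0.27 to 0.27), Junb at 0.02 (-0.48 to 0.52) and Atf3 at 0.07 (-0.61 to 0.74) were close to 0. Fosl2 was the one member whose libraries did not overlap, with all KO libraries below all WT libraries, which was so for 4.56% of genes tested. Its log2 value was -0.18 (-0.36 to 0.01, adjusted p = 0.608). Jund had 0.47 (-0.02 to 0.96, adjusted p = 0.603) and Maff 0.47 (-0.14 to 1.08, adjusted p = 0.749).

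The inducible line gave no call either, where 0.645% of the 17367 genes tested were called, and the libraries of all 8 members overlapped, while 12% of genes had groups apart. Control libraries had 11.8, 8.23 and 7.79 CPM of Fos, 6.24, 6.19 and 5.18 CPM of Fosb and 24.6, 21.8 and 20.3 CPM of Junb. The ifKO libraries had 18.1, 7.34 and 4.28 CPM of Fos, 12.1, 4.76 and 4.81 CPM of Fosb and 31.6, 21.9 and 26.7 CPM of Junb. Library 1 of ifKO was the highest of all 6 in these genes. In Fos and Fosb the other 2 ifKO libraries lay below all controls, and in Junb no ifKO library did. Log2 values were 0.12 (-0.71 to 0.94) for Fos, 0.32 (-0.32 to 0.95) for Fosb and 0.27 (0.02 to 0.51, unadjusted p = 0.0347, adjusted p = 0.661) for Junb. Fosl2 had 42.9, 48.5 and 47.7 CPM in control and 64.5, 39.2 and 41.5 CPM in ifKO, and Jun 62.4, 77.2 and 69.2 CPM against 74.0, 64.3 and 81.4 CPM. Their log2 values were both 0.07, with intervals of -0.25 to 0.38 and -0.11 to 0.26. Atf3 had 0.648, 0.590 and 0.407 CPM against 1.14, 0.547 and 0.719 CPM, and Maff 0.492, 0.509 and 0.385 CPM against 0.953, 0.442 and 0.332 CPM. Atf3 was at 0.57 (-0.10 to 1.24) and Maff at 0.36 (-0.45 to 1.17). All 8 values were positive, where 50.6% of all genes tested were, but that count rested on 1 library. Without ifKO library 1 the values of 4 members were negative, with Fos at -0.66, Fosb at -0.29, Maff at -0.24 and Fosl2 at -0.20. Control library 1, high in choroid plexus markers, was not left out of the values above. Without a low-count filter Junb (adjusted p = 0.00322) and Jund (1.34e-22) were called higher in ifKO. The Jund call arose although only ifKO library 3, at 62.1 CPM, stood above the control range of 20.3 to 26.4 CPM. With the filter its adjusted p was 0.775. Calls without a filter may thus take too little account of the spread between libraries. DESeq2 called 0 members in this comparison and in both comparisons of KO with WT, and Junb was the only member here with an unadjusted p under 0.05.

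Jund was the member whose libraries went their own way in the inducible line. It had 24.5, 26.4 and 20.3 CPM in control and 25.1, 22.6 and 62.1 CPM in ifKO, so 1 library stood far above the other 5. The log2 value was 0.62 (-0.03 to 1.27, adjusted p = 0.775), and without ifKO library 3 it was 0.01. The same library had the lowest Fos level of all 6. Jund is among the genes richest in GC bases, with 67.1% in its longest transcript, at the 99.8th percentile of genes tested. Junb is rich in GC too, with 62.6%, at the 98.7th percentile. Genes in the top 5% for GC content (59.7% or more) lay above their own mean by a median of 0.15 log2 units in ifKO library 3, and by -0.09 to 0.01 in the other 5 libraries. In the constitutive line the same median was highest in WT novelty library 1 (0.16) and KO novelty library 3 (0.13). It was lowest in WT novelty library 2 (-0.12). Jund itself deviated from its mean over that line by 0.14, 0.35 and -0.33 log2 units in these libraries. Jund was highest in KO novelty library 2 (0.54), where the median of the GC-rich genes was -0.04. Jund was lowest in WT novelty library 3 (-0.47), with a median of -0.07 for those genes. With offsets for GC content and length the ifKO value of Jund was 0.32 and the value of KO against WT after novelty 0.30. The part of GC content in the level of Jund was not tested beyond these offsets.

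**Figure D4:**
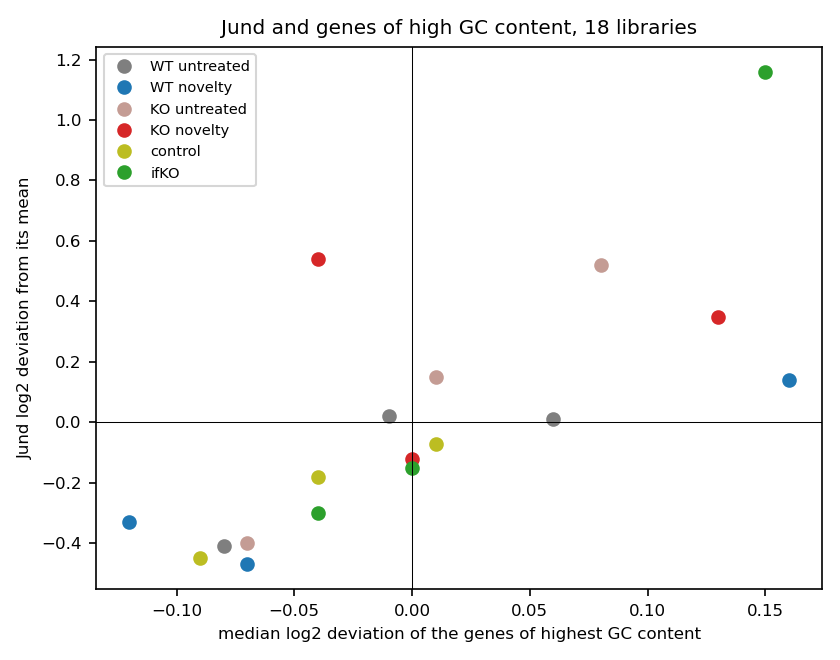
Jund in 18 libraries, as its log2 deviation from its mean over the libraries of its mouse line (vertical axis), against the median log2 deviation of the genes in the top 5% for GC content (horizontal axis). The ifKO library 3 stands at 0.15 and 1.16, above all other libraries in Jund.

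The spread between libraries of 1 group changed with novelty for most members. The SD of log2 CPM of Fos was 1.19 in untreated WT and 0.49 in untreated KO, and 0.17 and 0.16 after novelty. For Junb it was 0.60 and 0.44 untreated and 0.19 and 0.10 after novelty, and for Fosb 0.59 and 0.54 against 0.16 and 0.13. In 5 of the 8 members (Fos, Fosb, Jun, Junb and Atf3) both untreated SDs were above both novelty SDs, which was so for 6.99% of genes tested, while the opposite order held for 35.1%. Fosl2, Jund and Maff did not follow that order. The SD over all genes tested had a median of 0.10 in untreated WT and 0.09 in untreated KO against 0.15 and 0.14 after novelty, so the median gene was less even after novelty (log2 of CPM + 0.1 for this comparison over all genes). Each SD rests on 3 libraries, and no test of the spread was made. In ifKO the SD was 1.05 for Fos, 0.77 for Fosb and 0.80 for Jund, against 0.32, 0.15 and 0.20 in control.

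**Figure D5:**
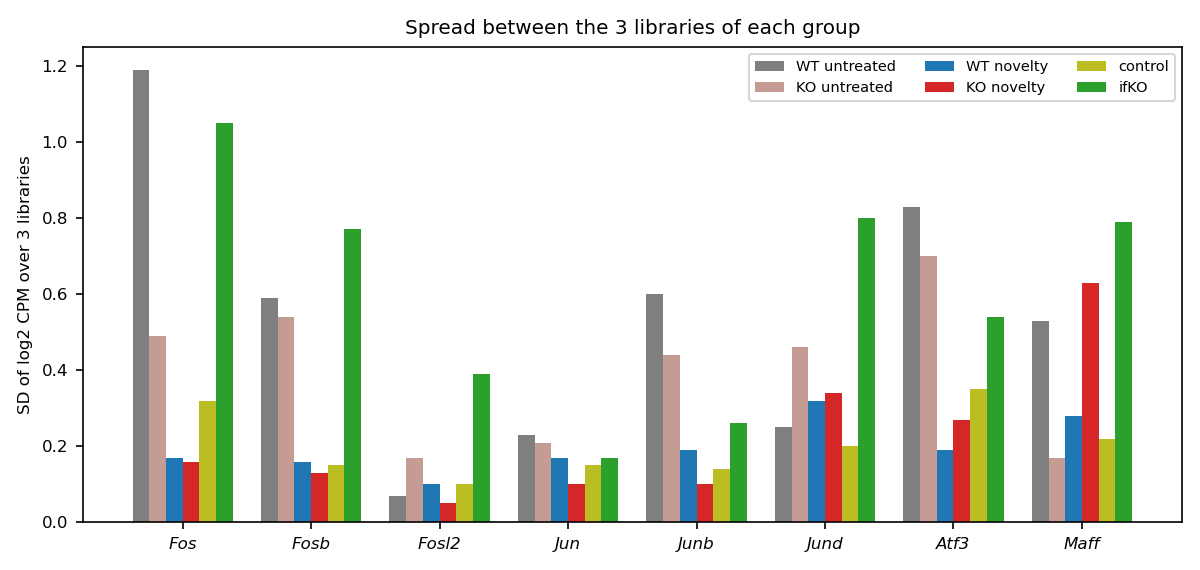
SD of log2 CPM over the 3 libraries of each group, for 8 members. The untreated bars stand above the novelty bars in both genotypes for Fos, Fosb, Jun, Junb and Atf3, with Fos at 1.19 in untreated WT and 0.17 after novelty.

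The uneven untreated levels lay in the same libraries for most members. WT untreated library 1 was the lowest of its group in all 7 members that had a group mean of at least 1 CPM, by a median of 0.97 log2 units under the other 2 libraries. Maff, under that cut, went the other way, with 0.863 CPM in this library against 0.667 and 0.420 CPM. This library also held the fewest counts of all libraries, 16.0 M. The mean log2 CPM of 8 other early response genes (Egr1, Egr2, Arc, Npas4, Nr4a1, Ier2, Btg2 and Dusp1) was also lowest there, at 3.78 against 4.94 and 4.66. KO untreated library 2 was the lowest in all 6 such members, by a median of 0.75, and its early response genes stood at 4.66 against 5.36 and 5.38. That library is the one with 618.1 CPM of choroid plexus markers, whose part in its lower values was not tested. After novelty WT library 2 was the lowest in 7 of 8 members, by a median of 0.22, while the KO libraries showed no such order. Members of 1 library share its tissue and preparation, so these counts are not independent.

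The genes nearest to each member in pattern were found by the root mean square (RMS) difference of log2 CPM over the 12 libraries of the constitutive line, each gene centred on its own mean, among 14434 genes. For Fos these were 1700016P03Rik at 0.274, Arc, a synaptic early response gene, at 0.317 and Fosb at 0.343, against a median of 0.999 over all genes. For Fosb they were Fos at 0.343, Atf3 at 0.346 and Gem at 0.438, and for Atf3 they were Fosb at 0.346, Map3k19 at 0.379 and Klf4 at 0.411. For Junb they were Egr1 at 0.154, Nr4a1 at 0.159 and Sik1 at 0.170, 3 early response genes, against a median of 0.566. Fosl2 was nearest to the heat shock cochaperone gene Dnajb1 at 0.141, then to Gadd45b at 0.148 and Nfil3 at 0.156, against 0.493. Jun had H2afj at 0.076, Jmjd6 at 0.081 and Phf13 at 0.089 nearest to it, and Maff had Gm15344 at 0.386 with Hspb1 and Depp1 at 0.409. Jund was nearest to Prr7 at 0.072, Pcsk1n at 0.089 and Ccdc85b at 0.102, against 0.370. In the 6 libraries of the inducible line, which had no part in the choice, these 3 lay at 0.115, 0.052 and 0.057 from Jund, against a median of 0.537. There the 3 neighbours of each of the other members also lay nearer than the median gene, except for Jun, where Jmjd6 at 0.164 and Phf13 at 0.188 lay farther than the median of 0.153. The Jund neighbours had GC contents of 69.0%, 57.3% and 54.8%, against a median of 49.6% over genes tested.

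Around the family, the genes that act on it or follow it changed less. Of 28 other bZIP genes and partners, among them Atf and Creb genes, large and small Maf genes and Nfe2l2, 25 were tested and 0 were called for novelty averaged over genotypes, with a median log2 value of 0.06. The nearest to a call were Atf4, the factor of the integrated stress response, at 0.26 ± 0.06 (adjusted p = 0.0569) and Jdp2, which encodes a repressor that pairs with Jun, at 0.26 ± 0.06 (adjusted p = 0.0578), both picked after their values were seen. None of the 20 upstream kinase genes was called (median 0.02). Over all genes tested 1.07% rose in the averaged comparison. Of 14 upstream factors and coactivators Srf, which encodes serum response factor, rose by 0.24 ± 0.05 (adjusted p = 0.0478), and the median was 0.04. Of 15 known AP-1 target genes 11 were tested and 1 rose, Plaur, the urokinase receptor gene, by 1.63 ± 0.35 (adjusted p = 0.0401), with a median of 0.01 over the 11. The Srf and Plaur values stood near the threshold, and neither was followed through the alternatives. Pdyn, the prodynorphin gene of the AP-1 target list, was lower in KO than in WT after novelty. It was lower by 0.56 ± 0.11 on the log2 scale (adjusted p = 0.0247). It was the 1 gene of the 11 called there, where 1.34% of all genes were. The mean log2 CPM of dentate granule cell markers was 5.38, 5.62 and 5.41 in these KO libraries and 5.53, 5.96 and 5.61 in WT. The part of cell content in the Pdyn value was not tested.

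Other early response genes and heat shock genes rose beside the members. Both lists, like those above, were chosen with earlier results of these data known, so their counts are a description and not a test. Over all genes tested 1.07% rose when novelty was averaged over genotypes. Of the 8 early response genes 5 rose on average, with Egr2 at 1.79 ± 0.24, Arc at 0.95 ± 0.22, Npas4 at 0.91 ± 0.19 and Egr1 at 0.86 ± 0.14, and the median of the 8 was 0.80. Of 8 heat shock and hypoxia genes 4 rose, namely Hspa1b by 1.10 ± 0.19, Hspa1a by 1.04 ± 0.19, Hspb1 by 1.01 ± 0.21 and Dnajb1 by 0.81 ± 0.10, all of them heat shock genes, with a median of 0.65 over the 8. Across the comparisons of KO with WT and of ifKO with control, none of the genes of both lists was called. All 8 early response genes had positive values in untreated KO against WT, with a median log2 value of 0.53, and after novelty 1 of the 8 was positive, with a median of -0.10. In the interaction 0 of the 8 were positive, with a median of -0.62, and the median over all genes was 0 in each of these comparisons. The interaction and the comparison of untreated mice share their untreated libraries, WT untreated library 1 among them, so these counts are not independent.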

How the data were processed

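Messenger RNA was sequenced in 18 libraries of adult mouse hippocampus, listed as 24 records because the 6 inducible-line libraries have 1 record per read of a pair. Values in the deposited files are counts of reads per Ensembl gene, not normalized. The submitters' processing notes name HTSeq 0.6.1, SAMtools 1.3, STAR 2.5.0c and DESeq2, and the build GRCm38. Strand setting and annotation release of the counting were not given in the sources used here. Of 47069 IDs, 46488 were given a GENCODE M21 symbol. Summary lines were left out; reads in no feature made up 14.7 to 17.2% and ambiguous reads 0.765 to 1.06%.

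Counts were fitted in R 4.3.3 with edgeR 4.0.16 (TMM, filterByExpr with a minimum count of 10, quasi-likelihood test, Benjamini-Hochberg adjustment over all genes, threshold 0.05). The 12 constitutive-line libraries were fitted together and the 6 inducible-line libraries alone. Alternatives were DESeq2 1.42.0, RLE factors, no filter, a filter of 1 CPM in 3 libraries, a replicate block, offsets for GC content and length, only the groups compared, and libraries left out. All 9 members were named. From each list at most 4 called genes per direction were named, by size of change, and 3 genes nearest in pattern per member. The members, the lists, the rules and the pair of novelty libraries left out together were chosen with earlier results of these data known. The fits for novelty in WT and for ifKO were tested on simulated counts with the spread typical of each level. Of 50 genes changed 2-fold, 96% and 100% were recovered. In the constitutive line Fos and Junb lay at the 99.8th and 99.4th percentile of spread among genes of like level. The recovered shares need not hold for such members.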

Additional observations from a re-analysis of the deposited data

How the results depend on the processing

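Across 846 values of the members' log2 fold changes under alternatives, 783 kept their side of the threshold and either their sign or a place within 1 SE of the reported value, 35 lost a call, 21 gained one, 7 changed sign while not called, and 0 changed sign while called. For novelty in WT, 2 members were called, 5 with DESeq2, 6 without a filter and 6 when GC content and length were offset, and between 2 and 3 with single libraries left out. For novelty in KO, 3 were called, 5 without a filter, 1 with only the groups compared, and between 1 and 2 without single libraries. For the average, 6 were called, 7 without a filter, and between 3 and 6 without single libraries, with 3 without WT untreated library 3. For untreated KO against WT and for ifKO against control, 0 were called, but 2 in each without a filter. Calls without a filter may take too little account of the spread between libraries, as seen for Jund in ifKO. The interaction and KO against WT after novelty had 0 in each alternative. The cause of these differences was not tested. Settings with libraries left out also have fewer degrees of freedom, whose part was not tested either. Only the groups compared could not be used for the interaction or the average, which need all 4 groups.

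Over all genes the counts called moved more, from 4 to 451 for novelty in WT (63 as reported), from 1 to 101 in KO (18), from 91 to 673 on average (222) and from 0 to 331 for the interaction (0), the 331 without the pair of novelty libraries that lay apart. They went from 121 to 415 for untreated KO against WT (204), from 104 to 705 after novelty (219) and from 56 to 398 for ifKO (112). The replicate block, with the library number of the labels as a block, called 1 member for novelty in KO, 2 in WT and 5 on average. Library numbers are not stated to pair the libraries. Deviations of same-numbered libraries correlated by -0.19 to 0.30, and those of differently numbered libraries by -0.31 to 0.22. With 3 libraries a group these correlations cannot settle whether same-numbered libraries share a batch. Fosl1 held at most 5 counts in a library, too few for a test.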
